A study of Mus musculus with 6 samples.

Results

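Mdk and Cd24a are 2 genes that developing neural tissue and many gliomas express, and both were lower in murine brainstem gliomas with the histone mutation H3.3K27M. They were taken by name from a deposited table of 223 genes that differed between the tumours, so the contrast that lists them is described here and not tested again. The mice were C57BL/6 and carried floxed p53 and Nestin tv-a, a transgene under the nestin promoter that gives nestin-expressing progenitors the receptor for an avian retrovirus. All 6 tumours had PDGF-B and loss of p53, and 3 of them also carried H3.3K27M. The titles of the other 3 read H3.3WT, and whether this means added wild-type H3.3 or the mouse's own genes alone is not stated. The age of the mice is not given in the sources used here. Each tumour was frozen and its total RNA sequenced without a sort for any cell type, so that normal brain cells within a tumour contribute to its values. The tumours with and without H3.3K27M carry different opening numbers in their titles, and whatever those numbers mark cannot be told apart from the mutation. H3.3K27M replicates 1 and 2 also share the second number of their titles, which replicate 3 does not, and what it marks is not stated. As the series describes the tumours as independent, each is counted as 1 replicate in the SDs and SEs.

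Midkine, the product of Mdk, is a small secreted growth factor that binds heparin and is rich in basic residues and cysteines. It was first found as a gene switched on by retinoic acid in embryonal carcinoma cells, is abundant in the embryonic nervous system and declines as tissue matures. It acts through a set of surface proteins that includes the receptor phosphatase Ptprz1, the kinase Alk, the receptor Lrp1 and syndecans. CD24, the product of Cd24a in mice, is a short, heavily glycosylated protein held to the membrane by a lipid (GPI) anchor. In the brain it marks migrating neuroblasts and other immature neurons and also ependymal cells, and outside the brain it is found on B cells, granulocytes and red cell precursors.

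The coding sequence of Cd24a and the last 150 coding bases of Mdk are shown because each gene has a processed pseudogene, a copy made from its mRNA, that could draw or lend reads. They come from GENCODE M21 on GRCm38, whose build is not the one named for these data (mm9, NCBIM37), and the deposited table gives no coordinates. Capitals mark bases inside a 50-base stretch that the pseudogene holds without a mismatch. All other bases are in lower case.
Mdk: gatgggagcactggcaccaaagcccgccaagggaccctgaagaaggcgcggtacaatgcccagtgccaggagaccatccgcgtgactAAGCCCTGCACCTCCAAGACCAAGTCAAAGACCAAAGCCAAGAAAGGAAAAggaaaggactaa
Cd24a: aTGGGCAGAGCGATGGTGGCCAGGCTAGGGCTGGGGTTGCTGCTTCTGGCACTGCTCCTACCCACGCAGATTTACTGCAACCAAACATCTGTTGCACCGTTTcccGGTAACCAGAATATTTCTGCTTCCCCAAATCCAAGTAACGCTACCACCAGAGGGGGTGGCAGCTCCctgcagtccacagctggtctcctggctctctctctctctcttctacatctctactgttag
Mdk (ENSMUSG00000027239) lies on the minus strand at chr2:91929805-91932297 in that build and has 4 transcripts, all protein coding. The coding sequence, from transcript Mdk-201, is 423 bases long in 4 exons and is shown from base 274, and 51 of its bases, close to the end, are shared with the pseudogene Mdk-ps1 on chromosome 11. Cd24a (ENSMUSG00000047139) lies on the plus strand at chr10:43578284-43584265 and has 3 transcripts, 2 of them protein coding. Its coding sequence, from Cd24a-201, is only 231 bases of a transcript of 1816 bases, and 167 coding bases (72.3%) are shared with the pseudogene Gm6212 on chromosome 14. Over all annotated transcripts of each gene, few 50-base stretches are shared exactly. They are 69 of the 2510 distinct stretches of Cd24a (2.75%) and 2 of the 1325 of Mdk (0.151%). Only annotated transcripts were searched, so copies in unannotated sequence and stretches with a mismatch are not counted. Neither pseudogene is in the table, no other annotated gene overlaps either member, and how the submitters' counting treated such reads is not stated.

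The values are read counts divided by a size factor per tumour (normalized counts), as the authors deposited them. Mdk was at 1145, 1522 and 1128 normalized counts in replicates 1, 2 and 3 without H3.3K27M. In the H3.3K27M tumours it was at 755, 819 and 685. Every tumour with the mutation was below every tumour without it, and replicate 2 was the highest of its group on both sides. The group means were 753 ± 66.9 with H3.3K27M and 1265 ± 223 without it (SD, n = 3 each). Mdk entered the authors' deposited table as 1.68-fold lower with an adjusted p of 0.0128.

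Cd24a was at 1215, 1698 and 1654 normalized counts in replicates 1, 2 and 3 without H3.3K27M. In the H3.3K27M tumours it was at 737, 1042 and 740. The groups did not overlap, but H3.3K27M replicate 2 and replicate 1 without the mutation lay close, with 1.17 times as much Cd24a in the tumour without it. The group means were 840 ± 175 with H3.3K27M and 1522 ± 267 without it (SD, n = 3 each). The gene is listed in the authors' deposited table as 1.81-fold lower with an adjusted p of 0.0176.

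**Figure D1:**
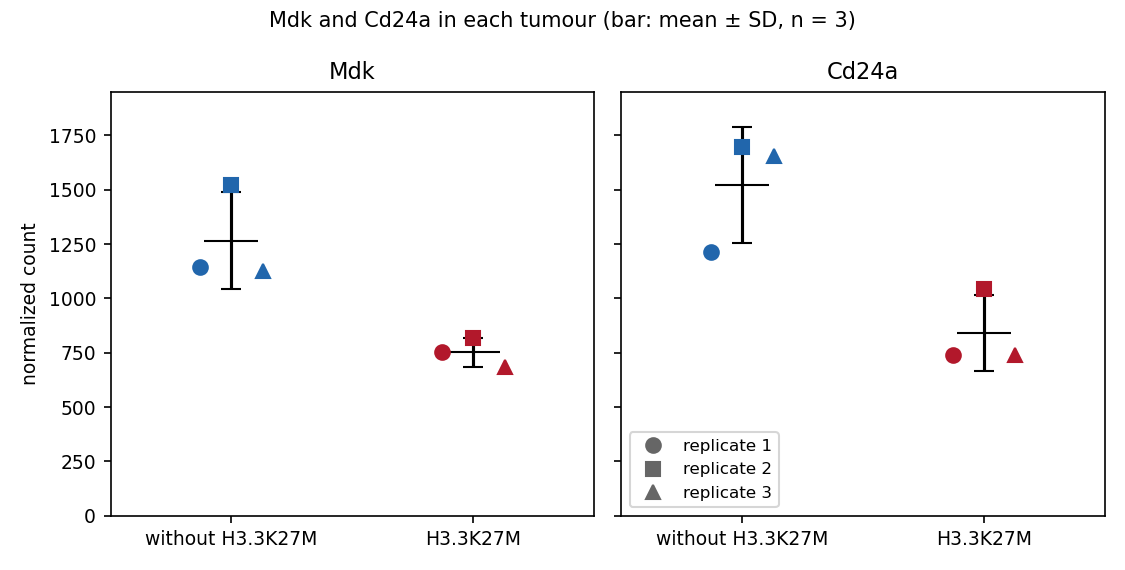
Normalized counts of Mdk and Cd24a (y axis) in the 3 tumours without and the 3 with H3.3K27M (x axis); symbols mark the replicate, and the horizontal bar and whiskers the mean ± SD. Mdk runs from 685 to 819 with the mutation and from 1128 to 1522 without it, while for Cd24a the nearest tumours of the 2 groups stand at 1042 and 1215.

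The 2 members are among 41 genes listed as lower with H3.3K27M, which are 0.251% of 16365 gene tests, and the table as a whole holds 1.36% of those tests. As the members were picked from this table, nothing is read from their presence in it. On the log2(normalized count + 1) scale the difference of the group means was -0.74 ± 0.16 for Mdk and -0.86 ± 0.23 for Cd24a (SE, n = 3 each). Over the 9 pairs of a tumour with and a tumour without the mutation, the tumour without it held 1.38 to 2.22 times as much Mdk and 1.17 to 2.30 times as much Cd24a. Because the RNA is from whole tumours, fewer cells that express these genes and less RNA per cell cannot be told apart.

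Within the groups the spread was similar for both genes without H3.3K27M, while with it Cd24a spread more than Mdk, a difference that was not tested. The coefficient of variation of Mdk was 8.88% with H3.3K27M and 17.6% without it. That of Cd24a was 20.9% and 17.6%. The values imply 711 to 1560 reads of Mdk and 768 to 1740 reads of Cd24a per tumour if 1 step of the values is 1 read, which gives counting errors (SD) of 2.53% to 3.75% and of 2.40% to 3.61%.

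In order of level, Mdk replicates 1 and 3 without H3.3K27M could not be separated by their 95% Poisson intervals (1080 to 1214 and 1060 to 1199 normalized counts). The intervals of H3.3K27M replicates 2 and 1 overlapped as well, and so did those of replicates 1 and 3. The step between the groups, from 1128 down to 819, exceeded these intervals. For Cd24a, replicates 2 and 3 without the mutation were inseparable, as were H3.3K27M replicates 3 and 1. The narrow step between the groups, 1215 with an interval of 1147 to 1285 against 1042 with 979 to 1108, exceeded the counting error, although it is smaller than the 1.36-fold and 1.41-fold steps inside the groups. Such intervals cover counting error only and say nothing about how further tumours would vary.

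The proportion of the members to each other varied between tumours. Mdk was at 1.02, 0.786 and 0.926 times the normalized count of Cd24a in H3.3K27M replicates 1, 2 and 3. In the tumours without the mutation the ratio was 0.943, 0.897 and 0.682. The ratios of the groups overlapped, with means of 0.912 ± 0.120 and 0.840 ± 0.139 (SD, n = 3 each). These ratios do not compare the abundance of the transcripts, as the genes differ in length. Per kilobase of annotated exon (1.32 kb for Mdk and 2.58 kb for Cd24a) Mdk stood at 1.33 to 2.00 times the level of Cd24a in the 6 tumours, on the assumption that the GENCODE M21 exons are those that were counted.

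Among the 41 lower genes the members were of ordinary size. The median ratio of group means over these genes was a 1.67-fold lower level, next to 1.68-fold for Mdk and 1.81-fold for Cd24a, and 13 of the 41 were at least 2-fold lower. By adjusted p in the authors' deposited table Mdk ranked 25th of 41, next to the forkhead factor Foxf1a (3.20-fold lower, adjusted p = 0.0135). In the authors' deposited table Cd24a ranked 29th of 41, between the cell cycle inhibitor locus Cdkn2a (1.71-fold lower, adjusted p = 0.0176) and the brain creatine kinase Ckb (1.45-fold lower, adjusted p = 0.0177). By size, Mdk stood between the kinesin light chain Klc3 (1.70-fold lower) and the calcium-binding protein Kcnip3 (1.67-fold lower) in that table. Cd24a stood between Aard (1.99-fold lower) and 1300014I06Rik (1.76-fold lower).

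In how closely its groups approached each other, Cd24a stood at the low end of the lower genes, with others close by. Of the 41 lower genes, 38 had reads in H3.3K27M tumours, and the ratio of the lowest tumour without the mutation to the highest with it had a median of 1.32 over these. It was 1.38 for Mdk, the 14th highest of 38, and 1.17 for Cd24a, the lowest of the 38. Cdkn2a at 1.17 and Ckb at 1.18 were next. Groups that did not overlap were the rule in this selected list, with 40 of 41 genes, and the exception had no reads in H3.3K27M tumours.

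**Figure D2:**
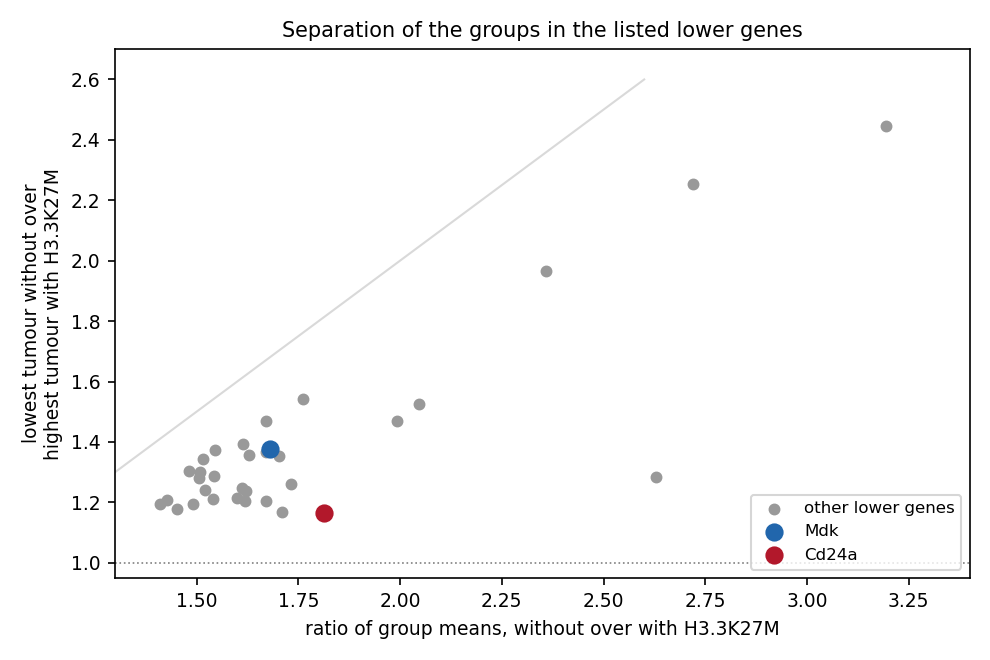
Ratio of the group means (x axis) against the ratio of the lowest tumour without to the highest tumour with H3.3K27M (y axis) for the 33 lower genes whose means differed less than 4-fold; the grey line marks equal ratios and the dotted line contact of the groups. Mdk lies inside the cloud at 1.68 and 1.38, and Cd24a lies lowest at 1.81 and 1.17.

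Gene lists around the members were read against the 1.36% of all gene tests that the table holds. For lists this short, counts of 0 or 1 are not a result about the list. The lists were also chosen with earlier results of these data known. Of 18 proteins that bind midkine or share its receptors, 1 is listed, the receptor Notch2, which has been described as a midkine receptor. Notch2 was at 398, 426 and 511 normalized counts in H3.3K27M replicates 1, 2 and 3. In the others it was at 216, 270 and 269, so that it moved the opposite way to Mdk. The groups of Notch2 did not overlap, but the table was selected on this contrast. How many of the listed higher genes share this was not counted. The authors' deposited table gives a 1.76-fold rise (adjusted p = 0.0361). Mdk's close relative Ptn and its receptors Ptprz1, Alk and Lrp1 are not in the table and have no value here. Of 9 partners of CD24, among them the adhesion molecule L1cam and the lectins Siglecg and Selp, 0 are listed, and the same holds for 17 genes of retinoic acid signalling and 13 other heparin-binding growth factors.

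Of 36 other genes of immature neural cells, including Nes, Sox2, Sox11, Dcx and Stmn1, 0 are in the table, against the same background of 1.36%. A gene that is not listed either stayed at or above the adjusted threshold of 0.05 or was not tested, and its level is unknown here. Of 14 other surface proteins used to mark neural stem and glioma cells, 2 are listed, and they went opposite ways. The tetraspanin Cd9 was at 6245, 5325 and 4612 normalized counts in H3.3K27M replicates 1, 2 and 3. Without the mutation it was at 8528, 9297 and 9203, and the authors' deposited table gives a 1.67-fold lower level (adjusted p = 1.24e-04). Thy1, a GPI-anchored protein like CD24 but one of mature neurons, was at 1252, 681 and 1374 against 355, 361 and 332, a 3.16-fold rise in the authors' deposited table (adjusted p = 0.0178).

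The genes whose pattern was most like that of a member were sought over all 222 other listed genes. Each gene's log2(normalized count + 1) values were centred on its own mean over the 6 tumours, and likeness was the mean absolute difference from the member. Nearest to Mdk were Oraov1 at 0.083 log2 units, the TNF-induced protein Tnfaip8 at 0.092, the secreted glutathione peroxidase Gpx3 at 0.094, the secretory cargo receptor Tmed3 at 0.12 and the G protein subunit Gng3 at 0.12. The median distance was 0.20 over the other lower genes and 1.09 over all other listed genes. Mdk and Oraov1 shared their order within both groups, with replicate 2 the highest on each side. Oraov1 was at 14202, 16158 and 13650 normalized counts with H3.3K27M and at 20776, 25555 and 19316 without it.

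Nearest to Cd24a were the Notch ligand Dll3 at 0.14 log2 units, Gpx3 at 0.15, the lipid droplet protein Bscl2 at 0.15, Mdk at 0.16 and Gng3 at 0.17. These distances are larger than those around Mdk. Their medians were 0.23 over the other lower genes and 1.16 over all other listed genes. Dll3 was at 475, 668 and 545 normalized counts with H3.3K27M and at 864, 812 and 1025 without it. It shared with Cd24a the high value of H3.3K27M replicate 2. Without the mutation it was lowest in replicate 2, where Cd24a was highest. Mdk was the 4th nearest gene to Cd24a, whereas Cd24a was the 13th nearest to Mdk.

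All 5 nearest genes of each member were lower genes, and the difference between the groups weighs in this measure of likeness. With each gene centred within its group instead, a choice made after the data were seen, 3 of the 5 stayed for each member. For both members, the genes that entered the 5 nearest by this measure are higher with H3.3K27M. Cd24a then ranked 34th from Mdk, while Dll3 and Mdk, which left the 5 nearest to Cd24a, ranked 11th and 20th from it. The annotated spans of Gng3 and Bscl2 overlap on opposite strands, as do those of Tnfaip8 and C030005K06Rik. The same holds for Klc3 with Ercc2, Cd9 with Gm28809 and Gm26728, and Gng3 with AC129217.1. Notch2, Bscl2 and Kcnip3 also overlap annotated genes on the same strand. Shared exons were not measured, and since use of strand is not stated it is unknown how reads inside such overlaps were counted.

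**Figure D3:**
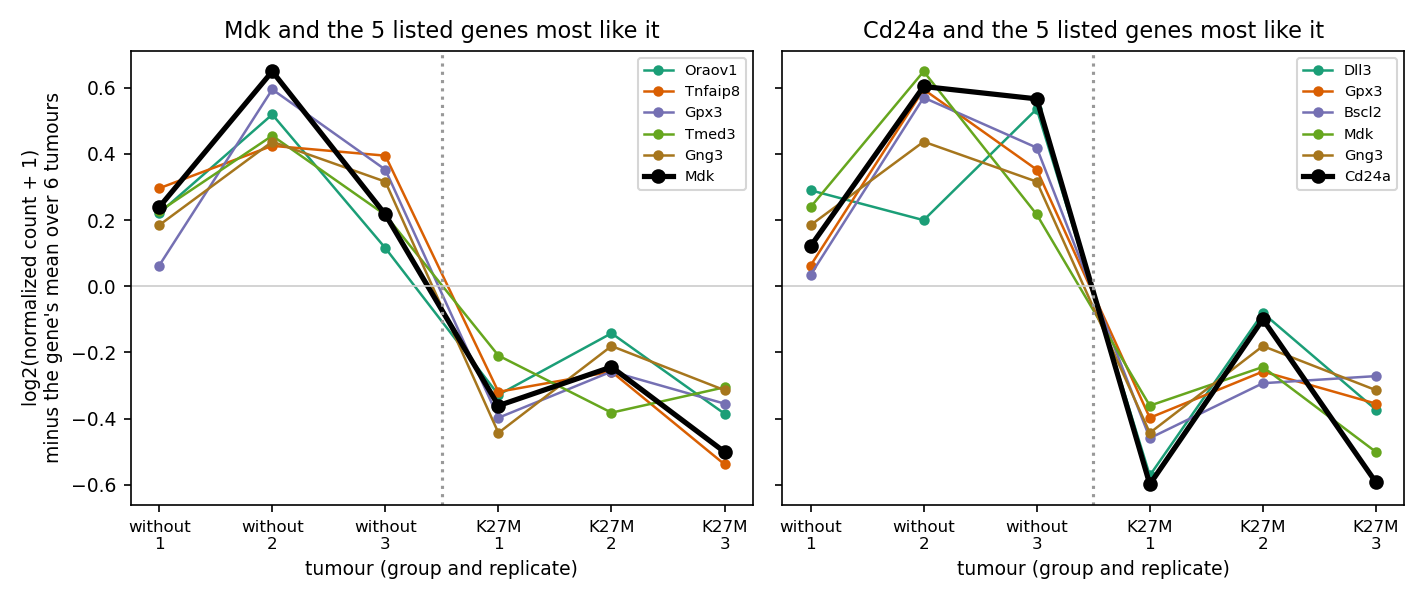
Log2(normalized count + 1) of each member (black) and its 5 nearest listed genes (colours), minus each gene's mean over the 6 tumours (y axis), by tumour (x axis); lines join the values of a gene and imply no order of the replicates. Oraov1 stays within a mean of 0.083 of Mdk, and the genes around Cd24a are looser, from 0.14 to 0.17.

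Listed markers of cell types also differed between the groups, some in the direction of the members and some in the opposite direction. The table holds 1.36% of all gene tests, and 182 of its 223 genes are higher with H3.3K27M, so that higher is the usual direction of a listed gene. As the marker lists were chosen with earlier results of these data known, the counts of listed markers are not read as a result about a cell type. Of 36 neuron markers 12 are listed, all higher with H3.3K27M and none at 0 in any tumour. Thy1, already named above, is among these 12, so its direction here is not a separate observation. The summed level of the 12 was 10195 to 20415 normalized counts with the mutation and 3485 to 6490 without it. Inside the groups, the tumour with the least of these neuron markers in the H3.3K27M group, replicate 2 (10195 against 18922 and 20415), had the most Mdk and Cd24a of that group. Without the mutation, replicate 1 had the most neuron marker counts (6490, against 4936 and 3485) and the least Cd24a. For Mdk that order did not hold, as replicate 3 had the fewest neuron marker counts and the least Mdk of its group. Of 20 astrocyte markers 4 are listed, all higher, with sums of 2169 to 3797 against 960 to 1141. Of 18 genes taken as markers of oligodendrocyte precursors 3 are listed (Bcas1, Dll3 and Kcnip3), all lower like the members. Their sums were 15558 to 20170 with H3.3K27M against 24700 to 29655 without it. Most of each sum came from Bcas1 (8751 to 11375 with H3.3K27M) and Kcnip3 (6331 to 8127), and little from Dll3 (475 to 668). How far the sum follows precursor cells was not tested. Pdgfra, Olig2 and Sox10 of the same list are not in the table. Dll3 and Kcnip3 were already named above beside Cd24a and Mdk, so their direction here is not a separate observation. The sum was highest in replicate 2 with the mutation, as were both members. Without it, the sum was lowest in replicate 2, where both members were highest.

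For cell types known for CD24 outside immature neurons, the counts of listed markers are likewise too small to read against the background of 1.36%. Of 10 B cell and 10 red cell markers other than Cd24a, 0 are in the table. Of 15 granulocyte markers 1 is listed, Chi3l3, which had 12.4 to 39.5 normalized counts with H3.3K27M and at most 1.95 without it, the opposite direction to Cd24a. Of 15 ependymal and choroid plexus markers 1 is listed, Otx2, also the opposite way, at 153 to 239 against 0 to 48.8. Of 16 macrophage and 13 endothelial markers 0 are listed. Of 14 mural and fibroblast markers 3 are listed (Lum, Dcn and Lox), all higher, with sums of 1116 to 1764 normalized counts with H3.3K27M against 280 to 556 without it. Of 16 oligodendrocyte markers 1 is listed, Ermn, at 80.6 to 217 against 18.5 to 31.2. Of 20 cell cycle genes 1 is listed, the cyclin Ccnd3, lower like the members at 4237 to 5220 against 6230 to 7084. Listed markers were selected for the same contrast, and the part of any cell type in the levels of Mdk and Cd24a was not tested.

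**Figure D4:**
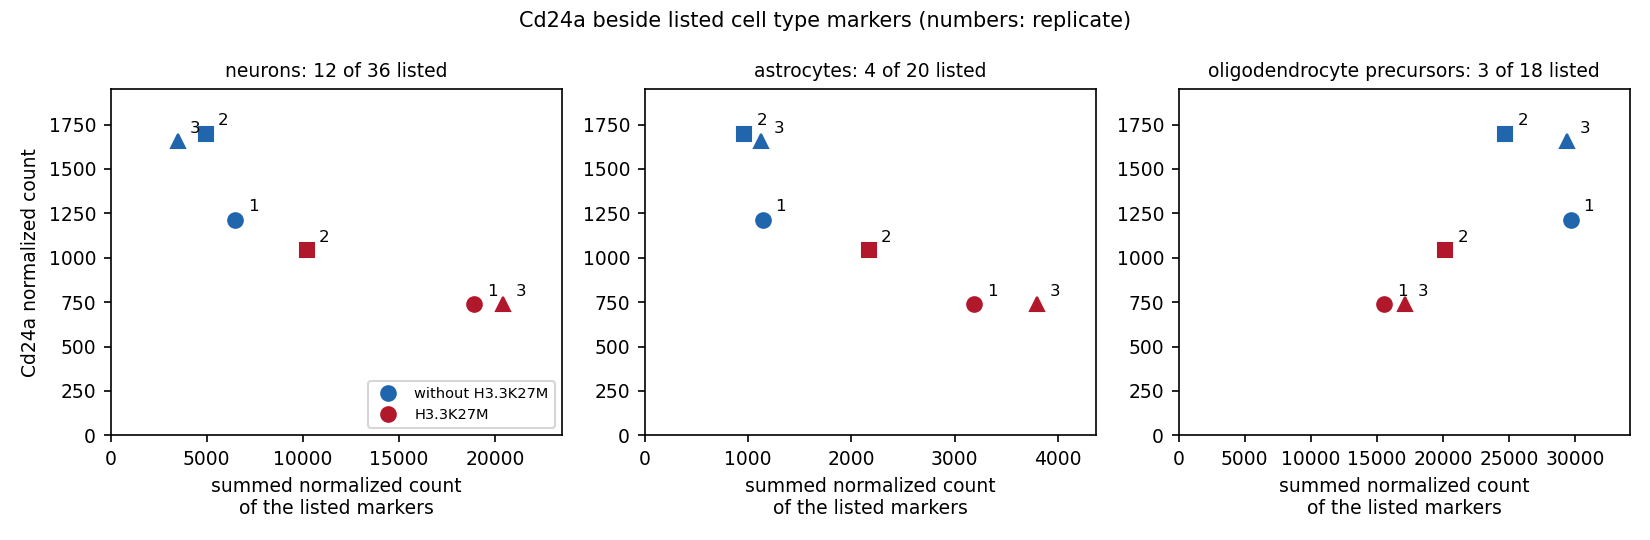
Normalized count of Cd24a (y axis) against the summed normalized count of the listed neuron, astrocyte and oligodendrocyte precursor markers (x axes) in each tumour; numbers give the replicate. H3.3K27M replicate 2 lies nearest to the tumours without the mutation on both axes of all 3 panels, with 1042 normalized counts of Cd24a and 10195 of neuron markers.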

How the data were processed

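RNA sequencing of 6 tumours was analysed, 3 per group, grouped by sample title and numbered in sample order. The design text calls the tumours independent. Per the submitters' processing notes, DESeq (no version stated) was used and builds mm9 and NCBIM37 are named; the sources used here do not give the aligner, counter or use of strand. The authors deposited, for listed genes, a signal (normalized counts per tumour and group means), a ratio (fold change), its log2 value, and a p-value with its adjusted p-value. There were 0 per-tumour columns without a matching sample.

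In each column, 100% of values were whole multiples of 1 step within 0.01; implied size factors were 0.917 to 1.06, and reads over the listed genes 215758 to 277881 per tumour. Total depth is unknown. Inverting the Benjamini-Hochberg formula on the deposited values gave 16365 tests; the largest listed adjusted p was 0.0495. The step, the number of tests and the likeness measure were tested on simulated data. No count test was run, as the table holds only genes selected on this contrast.

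The members and gene lists were chosen with earlier results of these data known. Named genes are the members, the 5 nearest listed genes to each, listed members of the pathway, immature neural and surface protein lists, and neighbours in adjusted p and fold among lower genes, of which 1 is not reported here; the other listed markers named were picked from the cell type lists. Pseudocount 1 was used on the log2 scale. Sequences come from GENCODE M21. Python 3.11.15 and scipy 1.17.1 were used.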

Additional observations from a re-analysis of the deposited data

How the results depend on the processing

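The lower levels of Mdk and Cd24a kept their direction under all 9 alternatives. As the groups of neither gene overlapped, leaving out a tumour, group medians and mean log2 values could not have reversed it. For these alternatives only the sizes are read. When each tumour was left out in turn, the log2 difference of the group means lay between -0.82 and -0.59 for Mdk, and between -1.04 and -0.77 for Cd24a. The lowest size for Mdk was without replicate 2 of the tumours without H3.3K27M, and the highest for Cd24a without H3.3K27M replicate 2. With unscaled reads the differences were -0.70 and -0.80. With group medians in place of means Cd24a went from -0.86 to -1.16, which is more than the replicate SD of 0.28, while Mdk was at -0.60. The difference between the groups in the log2 ratio of Mdk to Cd24a was 0.11; it went to 0.56 with medians and lay between -0.03 and 0.23 without single tumours, with the sign changed by leaving out replicate 3 without H3.3K27M. Of the 5 genes nearest to Mdk, 2 to 5 stayed when a tumour was left out, and 1 to 4 of those nearest to Cd24a; pseudocounts of 0.5 and 10 and a filter at a mean of 100 normalized counts kept all 5 for both. The cause of these shifts was not tested. No paired analysis was possible because the labels give no replicate numbers that the groups share. With 3 tumours per group and a table limited to selected genes, neither the spread among further tumours nor the level of unlisted genes can be judged.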
